A study of Mus musculus with 7 samples.

Results

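Mammary pericytes are the 349 cells that carry the name pericyte in the annotation deposited with this single-cell RNA-seq study, out of 13684 cells in 13 named types (2.55%). The study compared abdominal #4 mammary glands, with the lymph nodes removed, of 3 young (3 to 4 months) and 4 aged (13 to 14 months) mice. All were nulliparous females of a mixed FVB, 129 and C57BL/6J background, killed in diestrus, and the labels name no transgene or treatment. Each mouse gave 1 droplet library, without cell sorting. The pericytes were spread over all 7 mice, with 121, 71 and 39 cells in young A, B and C and 24, 46, 28 and 20 cells in aged A, B, C and D. The letters name different mice in the 2 age groups. Counts were summed per mouse, so that the mouse was the replicate.

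Pericytes are mural cells that sit in the basement membrane of capillaries and small venules, wrapped around the endothelial tube, and they grade into the vascular smooth muscle cells of arterioles and larger veins. Endothelial cells recruit them with PDGF-B, which they sense through PDGFR-beta, and Notch3 signalling maintains them. Rgs5, a regulator that shortens G-protein signalling, desmin (Des), a muscle intermediate filament, and Notch3 are the markers by which they were recognised here. Mural cells of arterioles carry large amounts of smooth muscle actin (Acta2) and myosin, while capillary pericytes carry little. In the mammary gland they support the capillary bed around ducts and lobules.

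The summed pericyte counts ranged from 116596 to 663762 unique molecular identifiers (UMIs, 1 per captured RNA molecule) per mouse, and the whole libraries from 6652599 to 16999625. A pericyte held a median of 5065 UMIs and 1829 genes, against 4907 UMIs and 1642 genes in a vascular endothelial cell. Of the cell barcodes, 101 occurred in more than 1 library, 5 of them on pericytes. The barcodes are written in a different format in young and aged mice, and a few genes listed on 2 rows swap rows between the ages, so age and the processing of its libraries cannot be told apart. A doublet caller marked 73 cells in all and 2 pericytes.

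The 3 naming markers had their highest level among the 13 types in pericytes, where levels are a gene's UMIs per 1000000 of the summed UMIs (CPM), averaged over the mice. Rgs5 stood at 788 ± 320 CPM (SD, n = 7 mice), against 90.9 CPM in vascular endothelial cells, the next type. Des stood at 328 ± 176 CPM, against 7.16 CPM in alveolar luminal cells (Luminal-AV). Notch3 stood at 131 ± 40.7 CPM, against 59.5 CPM in the Luminal-HS-AV cells. Since the cells were named from such genes, these levels were set by the naming and are a description only. Of the 349 cells, 65 held no UMI of any of the 3, as given for each kind of pericyte further on.

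Of 22 genes used to recognise pericytes in general, 17 were highest in pericytes, and so were all 12 of the pericyte genes the study itself listed, which were chosen on these samples. Gm13889, a gene of little known function, reached 2860 ± 1019 CPM in pericytes and 284 CPM in vascular endothelial cells. Rgs4, a second G-protein signalling regulator, reached 273 ± 104 CPM, and the next type stood at 9.23 CPM. Ndufa4l2, a mitochondrial protein abundant in mural cells, reached 272 ± 71.4 CPM, with 24.6 CPM in the next type.

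Single cells were compared after thinning each to 2000 UMIs, since deeper cells show more genes. At that depth 53.3% of pericytes held a UMI of Rgs5 (95% Wilson interval 48.1 to 58.5), 31.2% one of Des and 23.5% one of Notch3. Without thinning the 3 shares were 63.6%, 53.0% and 44.7%. In vascular endothelial cells the thinned shares were 7.26%, 0.66% and 0.77%, and in fibroblasts, which should lack these genes, 0.652%, 0.301% and 0.702%. Intervals of this kind cover counting error only. Ptprc, the marker of white blood cells, had a UMI in 0.287% of thinned pericytes.

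Most pericytes also held endothelial transcripts. Pecam1, the CD31 adhesion molecule of endothelium, had a UMI in 55.0% of thinned pericytes (49.8 to 60.2), in 70.9% of vascular endothelial cells and in 2.21% of fibroblasts. Cdh5, the VE-cadherin of endothelial junctions, had one in 47.9% of pericytes, 62.2% of vascular endothelial cells and 2.56% of fibroblasts. Rgs5 and Pecam1 were found in the same barcode in 30.4% of pericytes (25.8 to 35.4), in 5.00% of vascular endothelial cells and in 0 of the fibroblasts. The share of pericytes with either transcript was thus far above the share in fibroblasts, the cell type that serves as background for both.

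The endothelial transcripts were not spread evenly over the pericytes. Of a list of 28 endothelial markers, each pericyte had between 0 and 26 with at least 1 UMI, and no pericyte had 7, 8 or 9 of them. Below that gap lay 64 pericytes with 6 markers or fewer, called endothelial-poor here, and above it 285 with 10 or more, called endothelial-rich. The division was chosen after the counts were seen. No vascular endothelial cell had fewer than 10. After thinning to 2000 UMIs the gap closed, with 31 pericytes at 7 to 9 markers, so the place of the division depends on depth. The median depth was 4030 UMIs in endothelial-poor and 5334 UMIs in endothelial-rich cells. Of the 2 doublet calls among pericytes, both fell on endothelial-rich cells, which is 2 of 285. Whether an endothelial-rich barcode held RNA of 1 cell or of a pericyte with an endothelial cell was not tested, and all values of endothelial-rich pericytes are values of such barcodes.

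**Figure D1:**
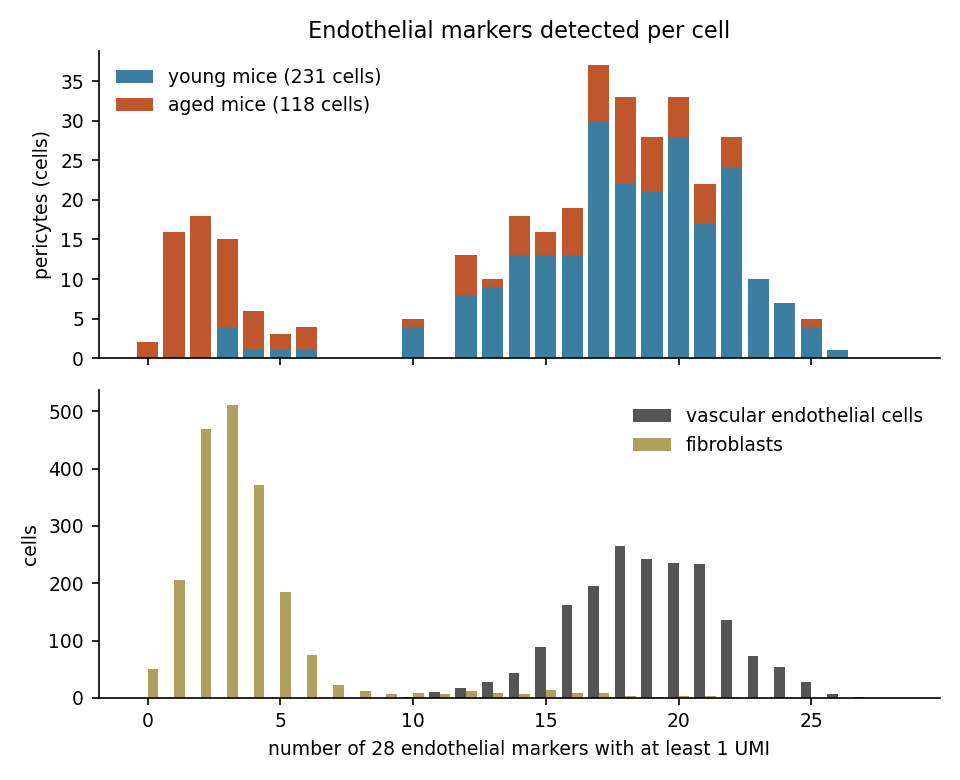
Number of cells (y axis) by how many of 28 endothelial markers had at least 1 UMI (x axis), for pericytes of young and aged mice and for vascular endothelial cells. Pericytes fall on both sides of an empty stretch at 7 to 9 markers, and 57 of the 64 cells on the low side came from aged mice.

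In endothelial-rich pericytes most endothelial markers, taken one by one, stood within 2-fold of vascular endothelial cells. Their summed share, as a median over cells, was below that of vascular endothelial cells at both ages, with the wider gap in young mice. Of the 28 markers, 24 had a mean level within 2-fold of that in vascular endothelial cells and 8 were at or above it, with a median ratio of 0.847. Within young mice alone 22 of the 28 were within 2-fold (median ratio 0.8294), and within aged mice 22 (0.893). Together the markers took a median of 2.38% of the UMIs of a young endothelial-rich pericyte and 5.41% of a young vascular endothelial cell, and 1.99% and 2.49% in aged mice. Of the 285 endothelial-rich cells 224 were young. Pecam1 stood at 677 ± 174 CPM in endothelial-rich pericytes and at 695 ± 87.3 CPM in vascular endothelial cells (SD, n = 7 mice each). Plvap, the diaphragm protein of fenestrated and venous endothelium, stood at 1904 ± 1156 and 1279 ± 571 CPM, and Flt1, a VEGF receptor, at 658 ± 181 and 464 ± 189 CPM. The spread between mice overlapped for all 3 genes.

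Another 4 of the 28 lay below that range in the endothelial-rich pericytes. Ackr1, the chemokine-scavenging receptor of venules, was at 232 ± 134 CPM against 1267 ± 938 CPM in vascular endothelial cells, a ratio of 0.183. That gap came from the aged mice, in which vascular endothelial cells averaged 1978 CPM, against 320 CPM in young mice. The ratio was 0.292 for Sele, the E-selectin of activated venules, 0.369 for the tight-junction gene Cldn5 and 0.371 for the water channel Aqp1. Levels in different cell types were not tested, because the cell types were made from these genes. In endothelial-poor pericytes 9 of the 28 markers had 0 UMIs in all 64 cells, and Pecam1 stood at 7.10 CPM over the summed cells. These cells were chosen for few of the 28 markers, so low levels follow from the choice. Fabp4, the fatty-acid carrier of capillary endothelium and fat cells, still had a UMI in 81.2% of thinned endothelial-poor pericytes, but it also had one in 34.4% of fibroblasts.

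**Figure D2:**
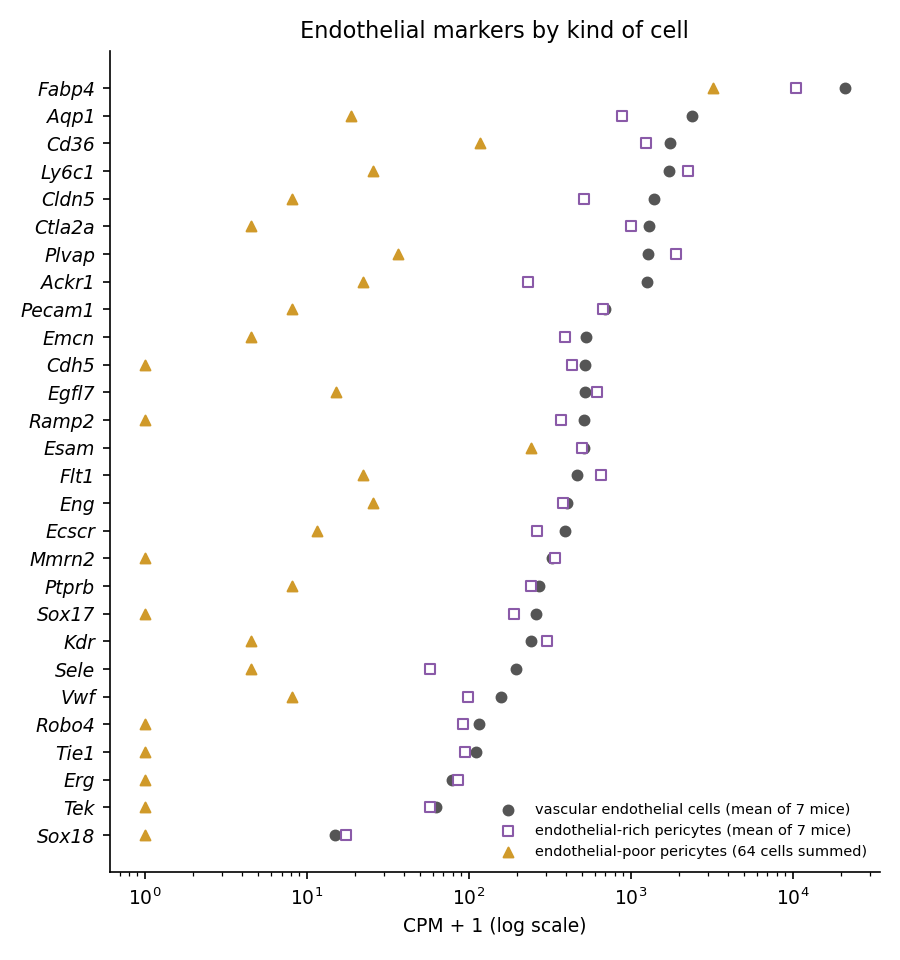
Level of each of 28 endothelial markers (x axis, CPM + 1 on a log scale; means of 7 mice, or the summed 64 endothelial-poor cells) in endothelial-rich pericytes, endothelial-poor pericytes and vascular endothelial cells. Points of endothelial-rich pericytes lie close to those of vascular endothelial cells for most markers, with Ackr1, Sele, Cldn5 and Aqp1 lower. Endothelial-poor pericytes, which were chosen for few of these markers, lie far below both.

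Taken over all mice, both kinds of cell carried pericyte genes, but in different amounts. Rgs5 had a UMI in 58.9% of thinned endothelial-rich (53.2 to 64.5) and in 28.1% of thinned endothelial-poor pericytes (18.6 to 40.1). Des had one in 23.5% and 65.6%, and Notch3 in 19.3% and 42.2%. The endothelial-rich cells were mostly young and the endothelial-poor cells mostly aged (57 of 64). Within aged mice Rgs5 had a UMI in 45.9% of endothelial-rich and 28.1% of endothelial-poor cells, Des in 18.03% and 71.9%, and Notch3 in 6.56% and 43.9%. Among the 7 young endothelial-poor cells 2, 1 and 2 held Rgs5, Des and Notch3, and of Des the share was the lower one there (1 of 7, against 56 of 224 young endothelial-rich cells). In counts without thinning, 64 of 285 endothelial-rich and 1 of 64 endothelial-poor cells had no UMI of any of the 3 genes, while 87.9% of vascular endothelial cells had none. Among endothelial-rich cells these were 37 of 224 in young and 27 of 61 in aged mice. Aged B stood apart, with 17 of its 19 endothelial-rich cells (89.5%) holding none of the 3 naming markers. The 22 general pericyte genes took a median of 0.0556% of the UMIs of those 19 cells, against 0.309% over all aged endothelial-rich cells. Whether those 19 barcodes are pericytes was not tested.

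The smooth muscle contractile genes marked the endothelial-poor cells. Acta2, the actin of smooth muscle, stood at 8784 CPM over the summed endothelial-poor cells and at 792 CPM over the endothelial-rich cells. Tagln, the actin-bundling protein transgelin, stood at 4160 and 472 CPM, and Myl9, a regulatory light chain of smooth muscle myosin, at 5222 and 617 CPM. Of 22 genes of the contractile apparatus, 21 were at least 2-fold higher in endothelial-poor cells, with a median ratio of 5.30. The actin anchor Vcl, the exception, stood at 92.4 and 97.1 CPM. Myh11, of the same list, had a UMI in 87.5% of endothelial-poor and 27.0% of endothelial-rich cells without thinning. Whether the endothelial-poor cells are capillary pericytes or vascular smooth muscle cells was not tested. The contractile genes took a median of 3.75% of the UMIs of an endothelial-poor cell (0.452 to 12.8 over the 64 cells) and 0.475% of an endothelial-rich cell (0.0532 to 3.73 over 285). In 7 of 7 mice the endothelial-poor median lay above the endothelial-rich median. Of the endothelial-poor cells, 63 of 64 lay above the median of the endothelial-rich cells, and 0 of the endothelial-rich cells lay above the median of the endothelial-poor cells.

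Across the 349 cells the contractile share and the endothelial share had a Spearman rho of -0.49, which is a description, since cells share mice, depth and a fixed total. Within the endothelial-rich cells rho was -0.16 and within the endothelial-poor cells -0.22. The share of the pericyte identity genes went with the contractile share within the endothelial-rich cells (rho 0.56), while rho was -0.05 within the endothelial-poor cells.

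**Figure D3:**
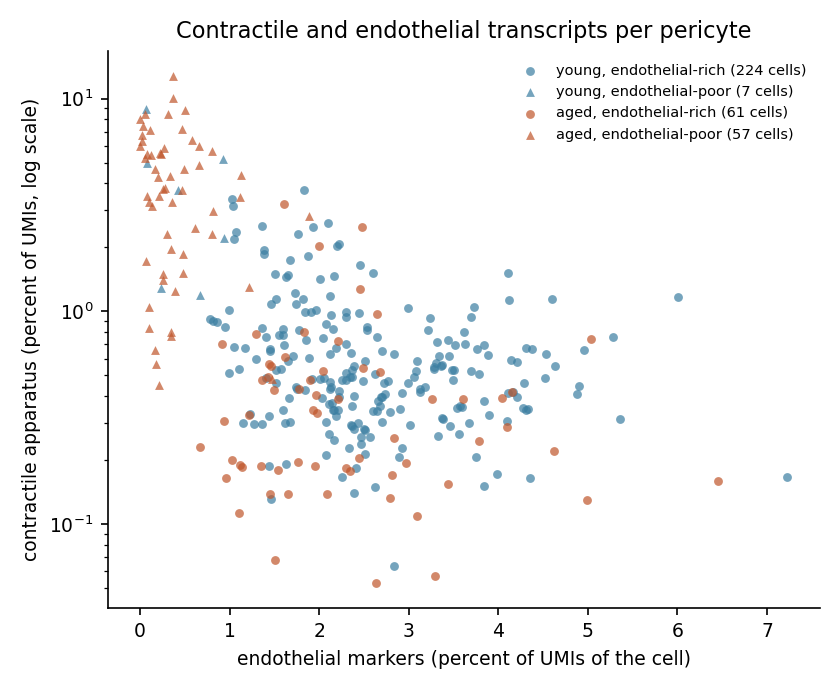
Each point is a pericyte, placed by the percent of its UMIs in endothelial markers (x axis) and in contractile genes (y axis), and marked by age. Endothelial-poor cells stand at high contractile shares, with a median of 3.75% against 0.475% in endothelial-rich cells, and most of them are from aged mice.

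The make-up of the pericytes differed between the ages. Endothelial-poor cells were 2, 4 and 1 of the pericytes in young A, B and C and 16, 27, 6 and 8 in aged A, B, C and D. That is 7 of 231 young cells (3.03%, Wilson interval 1.48 to 6.12) and 57 of 118 aged cells (48.3%, 39.5 to 57.2). By mouse the share was 1.65%, 5.63% and 2.56% in young and 66.7%, 58.7%, 21.4% and 40.0% in aged mice. Every aged mouse lay above every young mouse. Because the division was placed after the counts were seen, the difference in this share was given no test.

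The number of pericytes was first set against all cells. They were 5.39%, 5.62% and 1.36% of the cells of the young mice and 1.46%, 1.68%, 2.04% and 1.29% of those of the aged mice (4.12 ± 2.40% and 1.62 ± 0.325%, SD, n = 3 and 4). Young C lay within the aged range, and the exact two-sided permutation test gave p = 0.114. Among stromal cells the shares were 9.07%, 10.1% and 2.73% in young and 6.70%, 11.2%, 11.5% and 6.64% in aged mice, with an exact permutation p = 0.571. Without young C, which was the lowest of the 7 mice on the stromal scale, the aged mean lay 0.562 percentage points below the young mean instead of above it.

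Per 100 vascular endothelial cells there were 29.6, 18.8 and 26.9 pericytes in young mice and 14.0, 16.1, 15.3 and 8.06 in aged mice. The means were 25.1 ± 5.62 and 13.4 ± 3.65, the groups did not overlap, and the exact permutation test gave p = 0.029, the smallest p that 3 mice against 4 allow.

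On the summed UMIs of each mouse, endothelial markers took 2.38%, 2.71% and 2.73% of the pericyte UMIs in young and 0.969%, 1.47%, 1.70% and 1.67% in aged mice. The 22 contractile genes took 0.737%, 0.747% and 0.876% in young and 3.36%, 1.61%, 1.52% and 1.72% in aged mice. The groups did not overlap on either scale, and each exact permutation p was 0.029. Both gene lists were chosen with earlier results of these data known, so each p is a description only. Aged A was by far the highest in contractile share and the lowest in endothelial share. Without aged A the contractile difference was 0.830 percentage points in place of 1.27.

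When only the endothelial-rich cells were summed, the contractile share was 0.637%, 0.656% and 0.811% in young and 0.339%, 0.227%, 0.637% and 0.497% in aged mice. The mean was then lower in aged mice (0.425 ± 0.180% against 0.701 ± 0.0953%), with an exact permutation p = 0.086. In aged A and B the median contractile share of endothelial-rich cells (0.182% and 0.188%) lay below that of vascular endothelial cells (0.249% and 0.242%). In the other mice it lay above. Of the endothelial-rich cells, 27 of 61 aged and 37 of 224 young ones held no naming marker. Their part in the lower mean was not tested. The endothelial share of the endothelial-rich cells was 2.68 ± 0.230% in young and 2.27 ± 0.534% in aged mice, with an exact permutation p = 0.34. The cells were chosen by these endothelial markers, so that p is a description only. Endothelial-poor cells gave 14.4% of all contractile UMIs of young pericytes and 85.8% of those of aged pericytes. For Acta2 alone the shares were 22.9% and 91.7%, for Des 3.51% and 81.1%, and for Rgs5 3.05% and 37.7%. Single mice carried the Rgs5 shares: all 37 young UMIs came from young B, and aged B stood at 84.5% and aged C at 0%. Without aged B the aged Rgs5 share was 18.8%. Most contractile transcripts of aged pericytes thus came from endothelial-poor cells and most of those of young pericytes from endothelial-rich cells.

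**Figure D4:**
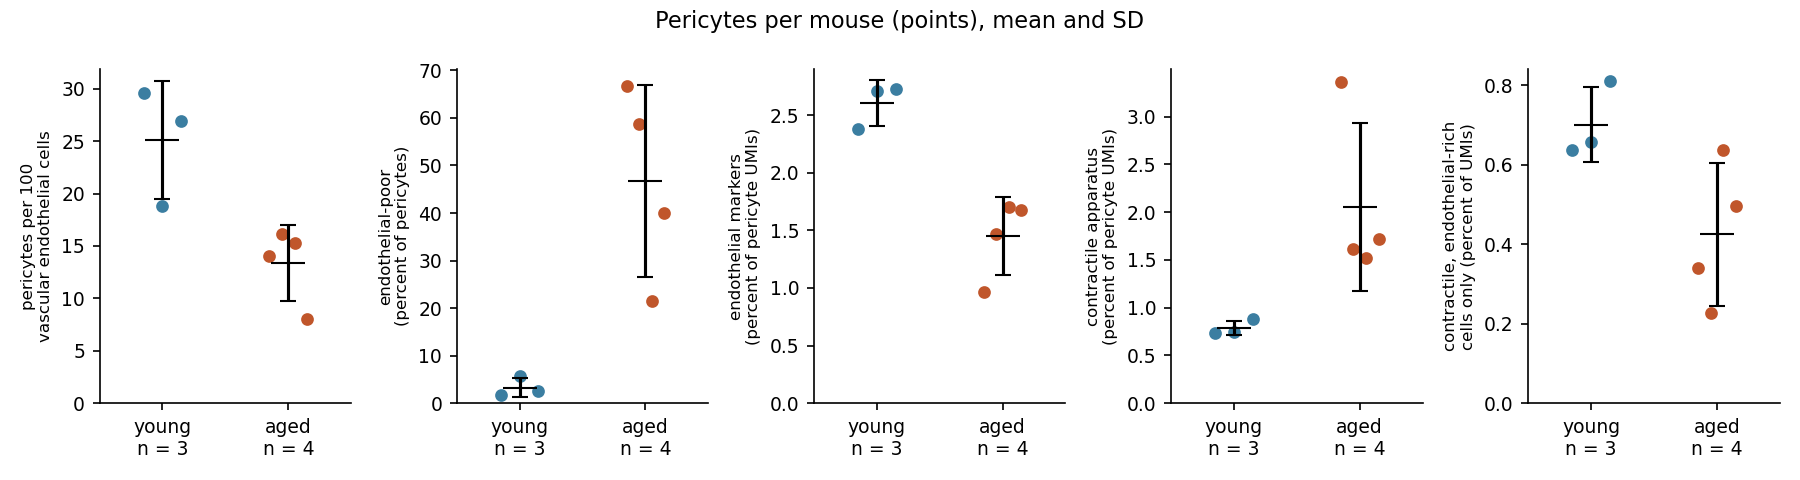
One point per mouse, young (3) and aged (4), with the mean and SD, for pericytes per 100 vascular endothelial cells, the endothelial-poor share of pericytes, the endothelial and contractile percents of pericyte UMIs, and the contractile percent in endothelial-rich cells alone. The ages do not overlap in the measures on all pericytes, with aged A the highest in contractile percent at 3.36%, and the aged mean is the lower one in endothelial-rich cells.

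The age comparison across genes was made on the summed counts with edgeR's quasi-likelihood test and Benjamini-Hochberg adjustment. A gene was called where its adjusted p was under 0.05 and its change at least 1.5-fold. Of 2601 genes tested, 187 were higher in aged pericytes (7.19%) and 120 were lower (4.61%). Log2 fold changes are given as aged over young, and their median over all genes was 0.01. Of the 307 called genes, 267 had no overlap between the 3 young and the 4 aged mice, as had 691 (26.6%) of all genes tested. Without young A, B or C there were 80, 99 and 108 genes higher and 48, 52 and 73 lower. Summed over endothelial-rich cells alone, 72 of 2141 genes were higher (3.36%) and 18 were lower (0.841%).

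Genes of the contractile apparatus had higher levels in the summed pericytes of aged mice. Endothelial-poor cells were 48.3% of those pericytes, against 3.03% in young mice. Of the 22 contractile genes, 18 could be tested, 14 were higher (against 7.19% of all genes) and 0 were lower. The median log2 fold change of the 18 was 1.38. In endothelial-rich cells alone 0 of the 16 tested were higher, 1 was lower and the median was -0.54. Acta2 (chr19:34241090-34255590 on the minus strand, GRCm38) stood at 1050.1, 1099 and 1180 CPM in young and at 6806, 3057, 2838 and 4074 CPM in aged mice. The lowest aged mouse was thus more than double the highest young one. Its log2 fold change was 2.07 ± 0.27 (SE), with an adjusted p of 0.0012 by edgeR, and in endothelial-rich cells it was -0.70 ± 0.46, with an adjusted p of 0.499.

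Tagln (chr9:45929619-45936058, minus strand) stood at 541, 657 and 654 CPM in young and at 3630.3, 1509.9, 1476 and 1664 CPM in aged mice, a log2 fold change of 1.90 ± 0.29. In endothelial-rich cells that change was -0.19 ± 0.42. Tpm2, a tropomyosin that lies along the actin filament, stood at 472, 428 and 508 CPM in young and at 3579.7, 1589, 1306 and 1707 CPM in aged mice. Its change was 2.27 ± 0.30 in all pericytes and -0.58 ± 0.44 in endothelial-rich ones. Aged A was the highest mouse for all 3 genes, and no young mouse reached the level of any aged mouse.

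Cnn1, the actin-binding calponin of mature smooth muscle, had the largest change of the contractile genes tested. It stood at 22.6, 2.83 and 9.15 CPM in young and at 152, 106, 102 and 77.2 CPM in aged mice, a log2 fold change of 3.06 ± 0.44 with an adjusted p of 0.00125 by edgeR. Lmod1, a leiomodin that starts smooth muscle actin filaments, changed by 2.39 ± 0.43, and Dstn, the actin-severing protein destrin, by 1.94 ± 0.29. Leaving out any 1 mouse kept the calls of Acta2, Tagln, Tpm2, Cnn1, Lmod1, Dstn and Myl9. Cnn1 and Lmod1 were too low to be tested in endothelial-rich cells.

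**Figure D5:**
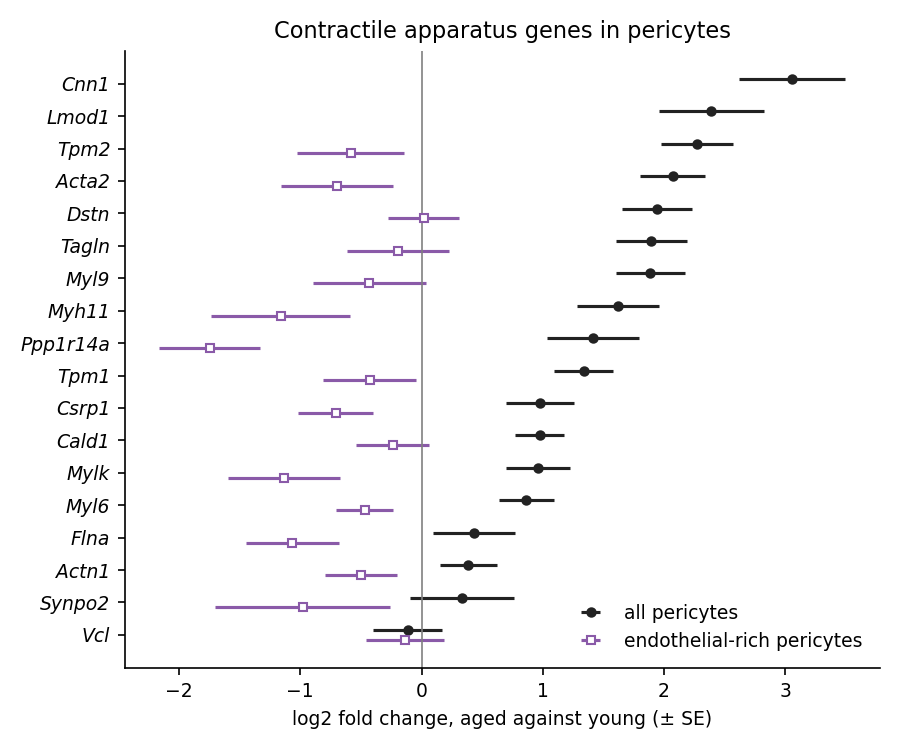
Log2 fold change, aged over young, with its standard error, for the contractile genes that could be tested, in all pericytes and in endothelial-rich pericytes alone. In all pericytes 14 of 18 were called higher, and in endothelial-rich cells 0 of 16 were, with Acta2 at 2.07 and -0.70.

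Many contractile genes are switched on by serum response factor through a motif named the CArG box. In RefSeq promoters (GRCm38.p6), read over the 250 bases before the start site on both strands, the motif occurred in 3 of the 19 contractile genes that had a promoter entry (Myl9, Vcl and Myl6) and in 439 of 27025 promoters overall (1.62%). The windows around the motif of Myl9 (chr2:156775278-156775337) and Vcl (chr14:20929148-20929205), both on the plus strand, are shown because the first gene was called higher and the second was not, with the motif in capitals and up to 25 bases on each side.
Myl9: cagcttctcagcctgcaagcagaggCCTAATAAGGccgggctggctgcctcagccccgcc
Vcl: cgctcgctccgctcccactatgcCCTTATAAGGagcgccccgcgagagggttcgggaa
Myl9 stood at 783, 634 and 937 CPM in young and at 4422, 1965.5, 1877 and 2161 CPM in aged mice, a log2 fold change of 1.89 ± 0.28 with an adjusted p of 0.00148 by edgeR. In endothelial-rich cells its change was -0.43 ± 0.47. Both windows lie outside the exons annotated by GENCODE. A match is a description of these letters only.

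The naming markers did not move as one. Des stood at 211, 142 and 174 CPM in young and at 649, 349.7, 345 and 429 CPM in aged mice, a log2 fold change of 1.46 ± 0.25 with an adjusted p of 0.00364 by edgeR. In endothelial-rich cells its change was -0.21 ± 0.38. Rgs5 stood at 939, 841 and 1339.9 CPM in young and at 345, 546, 633 and 875 CPM in aged mice, so that aged D lay above young B. Its change was -0.62 ± 0.27, with an adjusted p of 0.146, and the change of Notch3 was -0.33 ± 0.27, with an adjusted p of 0.474.

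Of the 22 identity genes, 15 could be tested, 4 were higher (Des, Gm13889, Aspn and Foxs1) and 0 were lower, against 7.19% higher and 4.61% lower over all genes. The median log2 fold change of the 15 was -0.33, opposite in sign to the calls, and it was -0.93 in endothelial-rich cells. Gm13889 stood at 2261, 1651 and 1838 CPM in young and at 3976, 4111, 2618 and 3568 CPM in aged mice, a log2 fold change of 1.05 ± 0.19, against 0.34 ± 0.32 in endothelial-rich cells. The calls of Aspn, a small matrix proteoglycan, and of the mural transcription factor Foxs1 were each lost without some of the mice. In endothelial-rich cells 0 of 11 identity genes were higher and 1 was lower, Pdgfrb, the receptor for PDGF-B, with a change of -1.98 ± 0.49 and an adjusted p of 0.0368. In all pericytes the change of Pdgfrb was -0.90 ± 0.32, with an adjusted p of 0.0797. Of the endothelial-rich cells, 27 of 61 aged and 37 of 224 young ones held no naming marker. Their part in the fall of Pdgfrb was not tested.

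All 12 genes of the study's own pericyte list, chosen on these samples, could be tested, and 5 were higher and 0 lower, against 7.19% higher and 4.61% lower over all genes. Beside Des, Gm13889 and Myl9 these were Sncg, a synuclein of smooth muscle and fat cells, with a change of 1.29 ± 0.20, and Sparcl1, a secreted matrix protein, with 1.13 ± 0.23. In endothelial-rich cells 0 of the 12 were called in either direction. Igfbp7, a secreted binding protein of the vascular basement membrane, ranged from 6645 to 7463 CPM in young and from 4953 to 8143 CPM in aged mice.

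Among genes that set contractile tone, 4 of 9 tested were higher and 0 lower, against 7.19% higher and 4.61% lower over all genes. Rgs2, which limits vasoconstrictor signalling, stood at 18.1, 11.3 and 22.9 CPM in young and at 67.4, 339.1, 84.8 and 137 CPM in aged mice. Its log2 fold change was 3.40 ± 0.54, with an adjusted p of 0.00203 by edgeR. The other 3 were Rock1, a kinase that keeps myosin active, and Gucy1a3 and Gucy1b3, the subunits of the nitric oxide receptor, whose calls were each lost without some of the mice. In endothelial-rich cells 0 of 6 were called. Rgs2 was not among the 6, as it was too low to be tested there. It stood in those cells at 16.8, 9.01 and 23.4 CPM in young and at 19.7, 36.1, 26.9 and 27.8 CPM in aged mice.

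Of 34 receptors and ligands of mural signalling, 16 could be tested, 1 was higher and 3 were lower, against 7.19% higher and 4.61% lower over all genes. The share of higher genes was thus no larger than over all genes. Tgfb3, a TGF-beta ligand, was the one that rose, from 12.1, 11.3 and 22.9 CPM in young to 109, 74.2, 50.9 and 111 CPM in aged mice (log2 fold change 2.69 ± 0.43, adjusted p 0.00196). Tgfb3 was too low to be tested in endothelial-rich cells. It stood there at 9.18, 6.01 and 23.4 CPM in young and at 0, 0, 6.72 and 0 CPM in aged mice. S1pr1, the sphingosine-1-phosphate receptor of endothelium, fell by 1.19 on the log2 scale, with no overlap between its 192 to 261 CPM in young and 74.2 to 111 CPM in aged mice. Tgfbr2 and Tgfbr3, a pair of TGF-beta receptors, were the other two, and their calls were lost without some of the mice. Of 6 Notch target genes 4 could be tested and 1 was higher (against 7.19% of all genes), Nrip2, which stood at 40.7, 34.0 and 91.5 CPM in young and 286, 143, 96.1 and 240.1 CPM in aged mice.

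Endothelial transcripts in the summed pericytes were lower in aged mice, as was their median share in vascular endothelial cells (5.41% in young, 2.49% in aged mice). Of the 28 markers, 27 could be tested, 7 were lower (against 4.61% of all genes), 0 were higher, and the median log2 fold change was -0.62. In endothelial-rich cells 1 of 26 was lower and the median was 0.00. Those cells were chosen by the number of these same markers detected, which limits what that fit can show of age. Cdh5 stood at 441, 535 and 444 CPM in young and at 236, 191, 237 and 189 CPM in aged mice, a fall of 0.99 ± 0.20, and its change within endothelial-rich cells was -0.18 ± 0.27. Ptprb, the VE-PTP phosphatase of endothelium, fell by 1.71 ± 0.36. Of 8 testable capillary genes 4 were lower (against 4.61% of all genes), led by Rgcc, a cell cycle regulator of capillary endothelium, at -1.28 ± 0.21. The calls of Fabp4 and Cd36, a carrier and a transporter of fatty acids, were lost without young B (adjusted p 0.0693 and 0.0726) and without young C (0.0681 and 0.0802), and that of Aqp1 without young A (0.129).

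Vwf, the von Willebrand clotting factor of larger vessels and veins, was the one endothelial marker called lower in endothelial-rich cells as well. It stood at 203, 181 and 128 CPM in young and at 16.8, 21.2, 45.2 and 17.2 CPM in aged pericytes. The log2 fold change was -2.54 ± 0.35 in all pericytes and -1.91 ± 0.36 in endothelial-rich ones, while in vascular endothelial cells it was 1.08 ± 0.24. The difference between the changes in pericytes and in vascular endothelial cells was -3.60 ± 0.39, with an adjusted p of 3.44e-07 by edgeR, and it was -2.92 with the endothelial-rich cells alone. Vcam1, a leukocyte adhesion molecule, had changes of -1.70 ± 0.36 in pericytes and 2.90 ± 0.26 in vascular endothelial cells, a difference of -4.59 ± 0.39.

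Stress genes were among the groups that were also higher in endothelial-rich cells. Of 23 genes of the heat shock list 19 could be tested, 9 were higher and 0 lower, against 7.19% higher and 4.61% lower over all genes. In endothelial-rich cells 6 of 17 were higher, against 3.36% of all genes. Hspa2, an Hsp70 chaperone, stood at 31.6, 42.5 and 27.4 CPM in young and at 118, 101, 147 and 129 CPM in aged mice. Its log2 fold change was 2.00 ± 0.29 in all and 1.84 ± 0.36 in endothelial-rich pericytes. Hspa1a, the inducible Hsp70, rose by 1.65 ± 0.35, but its call was lost without young A (adjusted p 0.0542).

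Of the immediate early genes, which answer to stimuli within minutes, 8 of 27 tested were higher and 1 was lower, against 7.19% higher and 4.61% lower over all genes. Gadd45b, a stress-induced gene, stood at 396, 450.3 and 668 CPM in young and at 1634, 1494, 1040.4 and 1458 CPM in aged mice. It rose by 1.65 ± 0.23, and by 1.25 ± 0.27 in endothelial-rich cells. Gadd45g rose by 1.45 ± 0.22. Fosb, a partner of Jun in AP-1, went the other way, from 1369, 1045 and 1715 CPM in young to 724, 471, 407 and 369 CPM in aged mice, a fall of 1.32 ± 0.24, and it fell by 1.21 ± 0.27 in endothelial-rich cells. In those cells 3 of 26 immediate early genes were higher and 1 was lower, against 3.36% and 0.841% over all genes.

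Hmox1, the heme oxygenase that is switched on by oxidative stress, had one of the largest changes. It stood at 67.8, 62.3 and 274 CPM in young and at 699, 577, 1238 and 592 CPM in aged mice, a log2 fold change of 2.83 ± 0.47 with an adjusted p of 0.00238 by edgeR. The change was 3.17 ± 0.52 in endothelial-rich cells and 4.21 ± 0.45 in vascular endothelial cells. Of 14 oxidative stress and iron genes tested, 2 were higher and 0 lower, against 7.19% higher and 4.61% lower over all genes. The second was Fth1, a subunit of the iron store ferritin, whose call was lost without some of the mice.

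Of 27 genes of the interferon response and MHC class I tested, 8 were lower (against 4.61% of all genes) and 2 were higher, a share near the 7.19% of all genes. H2-T23, a non-classical class I gene, stood at 31.6, 51.0 and 54.9 CPM in young and at 219, 175, 169.6 and 300.2 CPM in aged mice. It rose by 2.44 ± 0.30, and by 3.02 ± 0.36 in endothelial-rich cells. Irf7, the transcription factor that amplifies interferon output, stood at 140.1, 122 and 160.1 CPM in young and at 33.7, 26.5, 22.6 and 34.3 CPM in aged mice. It fell by 2.11 ± 0.30, and by 1.63 ± 0.36 in endothelial-rich cells. Ifit1, an interferon-induced binder of foreign RNA, fell by 2.31 ± 0.40, and its change in endothelial-rich cells was -1.93 ± 0.58, with an adjusted p of 0.0915. Both genes were also lower in aged vascular endothelial cells, with log2 fold changes of -1.91 for Irf7 and -2.39 for Ifit1.

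Matrix genes were lower where they were called, with few exceptions. Of 10 basement membrane genes tested 5 were lower and Sparcl1 alone was higher, against 7.19% higher and 4.61% lower over all genes. Of the 5, Nid1, Col4a1 and Col4a2 lost the call without some of the mice and Col15a1 whichever of the 7 mice was left out, while Sparc kept it. Sparc, a collagen chaperone of basement membranes, stood at 2585, 2617 and 2771 CPM in young and at 969, 1754, 1131 and 1235 CPM in aged mice, a fall of 0.90 ± 0.20. In endothelial-rich cells 0 of 10 were called. Of 21 interstitial matrix genes 4 were lower (against 4.61% of all genes) and 1 higher. Dcn, the proteoglycan decorin, stood at 102, 136 and 389 CPM in young and at 16.8, 5.30, 5.65 and 60.04 CPM in aged mice, a fall of 3.19 ± 0.67. Col3a1, a fibrillar collagen, fell by 2.49 ± 0.44, and in endothelial-rich cells Dcn and Col3a1 fell by 3.42 ± 0.79 and 4.18 ± 0.69. The calls of Col1a1 and Col1a2 were lost without young A (adjusted p 0.0721 and 0.0648).

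Dcn, Col1a1, Col1a2 and Col3a1 are also fibroblast markers, and the 14 markers of fibroblasts moved with these results. Their summed level was 0.0976% to 0.211% of pericyte UMIs in young and 0.0407% to 0.103% in aged mice, against 3.91% in fibroblasts. Dcn had a UMI in 10.6% of thinned pericytes, 5.83% of vascular endothelial cells and 99.8% of fibroblasts. In vascular endothelial cells Dcn, Col1a1 and Col3a1 also fell, by 2.01, 4.96 and 2.94 on the log2 scale, and Col1a2 was not tested. In myoepithelial cells all 4 genes fell, Dcn by 2.01 and Col3a1 by 5.22. Of the differences from pericytes only that of Col3a1 against myoepithelial cells was called, with the smaller fall in pericytes. The part of fibroblast RNA in the fall of Dcn, Col1a1, Col1a2 and Col3a1 was not tested.

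Of 14 cytokine and adhesion genes tested, 3 were higher and 2 lower, against 7.19% higher and 4.61% lower over all genes. Lcn2, the iron-binding lipocalin, stood at 40.7, 87.8 and 13.7 CPM in young and at 236, 456, 221 and 429 CPM in aged mice, a rise of 2.91 ± 0.42, while its change in endothelial-rich cells was 1.76 ± 0.48, with an adjusted p of 0.0583. Cxcl2, a neutrophil attractant, rose by 2.10 ± 0.31 and, in endothelial-rich cells, by 2.32 ± 0.48. Cxcl1, of the same family, rose by 1.30 ± 0.29, a call that was lost without young C (adjusted p 0.0634).

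Markers of other cells were low but not absent. The 15 epithelial markers took 0.0398% to 0.106% of pericyte UMIs in young and 0.102% to 0.298% in aged mice, against 3.05% in alveolar luminal cells, and 3 of 8 tested were higher (against 7.19% of all genes). Csn3, the milk protein kappa-casein, stood at 7.53, 108 and 0 CPM in young and at 135, 901, 113 and 995 CPM in aged mice. Trf, transferrin, which is also secreted into milk, had the same 2 highest mice, aged B and aged D. Their calls were lost without young A (adjusted p 0.0715 and 0.0711), and in endothelial-rich cells 0 of 5 epithelial markers were called. The part of epithelial RNA in the changes of secreted genes such as Lcn2 was not tested.

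The 11 immune markers took 0.00732% to 0.0410% in young and 0.00265% to 0.148% in aged mice, with aged A the highest. The lymphatic, adipocyte and glial lists each took at most 0.00651% in all mice, and Cd3e, Lep, S100b and Cdh19 had 0 UMIs in every mouse. The 4 hemoglobin genes took 1.60% in aged C and at most 0.00510% in the other mice. In aged C they came from 1 cell, whose 7059 UMIs were 40.0% hemoglobin. Without that cell 196 genes were higher and 125 lower.

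The 12 called genes of largest change upward whose mice did not overlap held Rgs2, Cnn1, Tgfb3, Lcn2, Csn3 and Hmox1, given above. They also held Map3k7cl (3.91 ± 0.52), Pdlim3, an actinin-associated LIM protein of the Z-line (3.15 ± 0.59), and Tesc, a calcium-binding protein (2.78 ± 0.42). Map3k7cl, Pdlim3 and Tesc were too low to be tested in endothelial-rich cells. Slpi, a secreted protease inhibitor, was a further member (3.57 ± 0.75, and 3.18 ± 0.61 in endothelial-rich cells). Slpi also rose by 3.40 ± 0.57 in vascular endothelial and by 1.39 ± 0.28 in myoepithelial cells, and neither difference from pericytes was called. Gm10260 and Rps18-ps3 (9.17 ± 0.43 and 2.53 ± 0.35) are pseudogene-like copies of ribosomal genes that share reads with their parents, so their values are uncertain. In vascular endothelial cells their changes were 8.91 and 3.29, and in myoepithelial cells 8.91 and 2.44. Gm10260 stood at 0 to 5.66 CPM in young and at 1323 to 1732 CPM in aged pericytes. Gm10036, called lower, changed by -2.66 in pericytes, -2.14 in vascular endothelial and -2.84 in myoepithelial cells. Age and the processing of its libraries cannot be told apart for these genes either. Among the 12 of largest change downward, Dlk1, a non-canonical Notch ligand, fell by 2.99 ± 0.59, Ifi27l2a, an interferon-induced gene, by 2.31 ± 0.54, and Mndal, another interferon-induced gene, by 2.08 ± 0.42.

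The age change of pericytes was set against that of vascular endothelial cells of the same mice with an interaction term and the mouse as a block. Of 7204 genes tested, 217 had a more positive change in pericytes (3.01%) and 476 a more negative one (6.61%). Without young A or young B the total of 693 fell to 295 and 437. Of the 22 contractile genes 11 had the more positive change in pericytes and 1 the more negative. The difference was 2.50 ± 0.33 for Acta2 (adjusted p 5.68e-06 by edgeR) and 2.67 ± 0.37 for Myl9. With endothelial-rich cells alone it was -0.42 for Acta2 (adjusted p 0.655) and 0.30 for Myl9 (adjusted p 0.749). Tagln rose by 2.29 ± 0.18 in vascular endothelial cells too, and its difference of -0.51 ± 0.26 was not called.

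Venous endothelial genes differed in the other direction, with 7 of 8 more negative in pericytes (against 6.61% of all genes), Vwf and Vcam1 among them. Of 9 arterial genes 5 were more negative. Of the 28 endothelial markers 11 were more negative and 0 more positive, against 6.61% and 3.01% of all genes. Endothelial-poor cells were 3.03% of young and 48.3% of aged pericytes, and their part in these differences was not tested. In the age fit on endothelial-rich cells alone 1 of 26 endothelial markers was called lower, Vwf. Those cells were chosen by these markers. Rgs5 had a more positive change in pericytes by 1.53 ± 0.44 (adjusted p 0.0246), since it fell by 2.20 ± 0.60 in vascular endothelial cells. With endothelial-rich cells alone that difference was 1.47, with an adjusted p of 0.00193.

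Myoepithelial cells, the contractile cells of the epithelium, share many of these genes, and 6 of the 22 contractile genes had their highest level there and their second highest in pericytes. The age changes of the 2 types went apart. Of 21 contractile genes tested, 16 had a more positive change in pericytes (against 5.45% of 4858 genes) and 0 a more negative one (against 4.59%). Acta2 fell by 2.41 ± 0.29 in myoepithelial cells, and the difference between the types was 4.36 ± 0.34, with an adjusted p of 1.00e-07 by edgeR. It was 1.50 with endothelial-rich pericytes alone, with an adjusted p of 0.0597. Cnn1 fell by 1.52 ± 0.32 there, a difference of 4.47 ± 0.49. Over all genes the total of 488 dropped to 177 without young A.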

How the data were processed

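Single-cell RNA-seq libraries (10x Chromium 3′ v2 kit) came from 3 young and 4 aged mice. The authors aligned reads to mm10 and counted UMIs with Cell Ranger 2.0, filtered cells on UMIs, genes and mitochondrial share, and named cell types from clusters. The deposited values are whole UMI counts per gene and cell, with the cell's mouse and type in a metadata table. For 56 symbols that stand on 2 of the 27998 rows, both rows were summed. Transcripts per cell are captured from the 3′ end, so gene length does not enter a level.

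Pericyte counts were summed per mouse. The age fit used edgeR 4.0.16 (R 4.3.3) with TMM factors, filterByExpr and the quasi-likelihood test over all genes kept, without covariates. Calls needed a p under 0.05 after Benjamini-Hochberg adjustment, together with a change of 1.5-fold or more. Interaction fits on the same mice had the mouse as a block. Single values were compared with exact two-sided permutation tests over the 35 divisions of 3 against 4 mice. Shares of cells used thinning to 2000 UMIs, and no pericyte was below that depth. Doublets, called with Scrublet in scanpy 1.11.5 at an expected rate of 0.06, were kept. In counts simulated for the age comparison on 2482 genes, the fit recovered 61.2% of genes changed 2-fold and 100% of those changed 4-fold, with 10 false calls. The changed genes were drawn only from genes above a minimum expected count in the smallest sum, so recovery of lower genes was not measured.

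The members and gene lists were chosen with earlier results of these data known. Text names follow a rule: Rgs5, Des, Notch3 and the study's pericyte list; of each list up to 6 members by call and level; the 12 called genes of largest change in each direction whose ages do not overlap; and list members called in the interaction fits. Genes named outside it, such as Vcl, Flt1, Cldn5, Pdgfrb or Ptprc, were chosen after their values were seen. Alternatives were DESeq2 1.42.0, RLE factors, no filter on low counts, no fold minimum and thinned sums. Others were fits without ribosomal genes, mitochondrial genes and Gm-named pseudogenes (250 genes) and fits leaving out each mouse. Further ones used cells on either side of the median endothelial share and cells without doublets. Sums over endothelial-rich cells, over cells with a naming marker and without the hemoglobin-rich cell were added after seeing the data. An age fit within endothelial-poor cells was not made, because 1 young mouse had the 3 cells asked of each mouse. The values of 1 gene of the heat shock list are not reported here.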

Additional observations from a re-analysis of the deposited data

Results flagged for a closer look

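In 6 of 88 groups of 4 aged mice, 1 mouse stood far from the other 3, judged by the gap to its nearest neighbour as a share of the whole range, a limit that chance passes in about 5% of groups. Aged A was the far mouse for the contractile share of pericyte UMIs (gap share 0.8928), Myl9 (0.8883) and Tagln (0.9127), and it was the highest in each. For Vwf the gap share was 0.8469, with aged C at 45.2 CPM and the others between 16.8 and 21.2 CPM. It was 0.9421 for Col15a1, a collagen of the basement membrane zone, and 0.9138 for Hspb2, a small heat shock protein of muscle.

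The age change differed, by the interaction test, between pericytes and vascular endothelial cells for 693 genes and between pericytes and myoepithelial cells for 488 genes.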

How the results depend on the processing

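DESeq2 called 164 genes higher and 92 lower, and RLE factors moved neither count by more than 1.5 times. Without the filter on low counts 313 genes were lower. Sums thinned to equal totals gave 87 higher and 60 lower. Pericytes at or below the median endothelial share gave 73 higher and 75 lower, and those above it, with 3 young and 3 aged mice, 8 higher and 11 lower. Endothelial-rich cells gave 72 and 18. For the difference from vascular endothelial cells the count was 302 with pericytes at or below the median share and 389 with endothelial-rich cells, and for that from myoepithelial cells 282 and 188. Fewer cells and UMIs enter each of these sums.

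Leaving out each mouse in turn gave 80 to 203 genes higher, 48 to 144 lower, 295 to 673 differing from vascular endothelial cells and 177 to 461 differing from myoepithelial cells. The aged minus young difference ranged from -0.562 to 3.11 percentage points for the share of stromal cells, from -14.9 to -9.45 for pericytes per 100 vascular endothelial cells, from -1.27 to -0.993 for the endothelial percent and from 0.830 to 1.44 for the contractile percent. With 1 mouse fewer the exact permutation test cannot pass 0.05. In endothelial-rich cells the difference was -0.407 for the endothelial percent, by whose markers those cells were chosen. For the contractile percent it was -0.276, the reverse of that in all pericytes.

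Same-lettered young and aged mice are different animals, and their deviations correlated at 0.0668, 0.0442 and -0.012. With the letters as a replicate block the counts were 129 higher and 78 lower.

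Of the 81 called genes the text could name, 44 kept the call without any 1 mouse. In pericytes above the median endothelial share the log2 fold change turned negative for 10 genes: Des (-0.45), Gm13889 (-0.31), Aspn (-1.05), Tpm2 (-0.12), Acta2 (-0.24), Dstn (-0.049), Tagln (-0.026), Cxcl1 (-0.18), Atf3 (-0.63) and Myc (-0.16). In endothelial-rich cells it did so for 6 genes: Des (-0.21), Myl9 (-0.43), Aspn (-0.93), Tpm2 (-0.58), Acta2 (-0.70) and Tagln (-0.19). The causes were not tested.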

Other observations

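A few genes with a wide margin over every other cell type were picked after their values were seen and are given as values only. Avpr1a, the vasopressin receptor of vascular smooth muscle, stood at 70.5 ± 58.0 CPM in pericytes (SD, n = 7 mice) and at 2.04 CPM in fibroblasts, the next type, with 192 CPM over the endothelial-poor and 32.2 CPM over the endothelial-rich cells. Rbpms2, an RNA-binding protein of smooth muscle, stood at 95.01 ± 63.1 CPM, with 227 CPM over the endothelial-poor and 41.2 CPM over the endothelial-rich cells. Ndufa4l2 and Rgs4 each stood at 551 CPM over the endothelial-poor cells, and at 215 and 188 CPM over the endothelial-rich cells. Higd1b, a mitochondrial protein of hypoxia found in lung and brain pericytes, stood closer in the kinds of cell, at 149 and 118 CPM. By mouse it ranged from 142 to 148 CPM in young and from 56.5 to 94.3 CPM in aged pericytes. Higd1b was not among the called genes, and 26.6% of all genes tested had no overlap between the ages.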
